A study of Mus musculus with 8 samples.

Results

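Brdt is a testis-specific protein of the BET family, whose paired bromodomains read acetylated lysines on histone tails. The N-terminal bromodomain, BD1, binds acetylated histone H4, which accumulates genome-wide before histones are replaced by transition proteins and protamines in elongating spermatids. Mice with a deletion of BD1 make a shortened Brdt protein, and their spermatids do not form properly. The series asks where Brdt sits on chromatin at each stage in both genotypes.

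The regions described here are the islands of BD1-deleted spermatocytes that BD1-deleted round spermatids shared and at which neither wild-type list had an island. An island is a run of 200-base windows, joined across gaps of up to 600 bases, whose anti-Brdt ChIP reads together exceeded a control library. A single window within an island need not do so. A BD1del spermatocyte island was taken when it shared at least 1 base with a BD1del round spermatid island and none with an island of either wild-type stage. The regions were thus selected on the measured islands themselves, and their number and enrichment are descriptions without a test. On chromosomes 2 to 13 and 15 to 19 of mm9, 12284 of 88738 BD1del spermatocyte islands met the rule, out of 426082 islands in the 4 lists of the series on all chromosomes. Counted from the other stage, 12953 BD1del round spermatid islands met it. Sequence and gene annotation of mm9 were not used here, so these regions are given by position, without genes or bases.

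The data came from anti-Brdt ChIP-seq and input libraries of meiotic spermatocytes and post-meiotic round spermatids of adult mice. The groups used were BD1del round spermatids, BD1del spermatocytes, wild-type round spermatids and wild-type spermatocytes, with 1 ChIP and 1 input library each. Cells of each stage were obtained by sedimentation of a testis suspension through a BSA gradient, and the fractions of a stage were pooled. The wild-type mice were C57BL/6, 10 animals to a pool, with chromatin digested by MNase to about single nucleosomes and an immunopurified rabbit antibody raised against recombinant Brdt. For the BD1del mice, the sources used here do not give strain, pool size, zygosity of the deletion or chromatin preparation. Purity of the 2 fractions was not measurable from island lists. Each group rests on 1 ChIP library, so replicate error is unknown and none of the differences below was tested.

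The lists differed in size and in the depth of their controls. On the chromosomes used, the BD1del lists held 163246 islands over 109.2 Mb in round spermatids and 88738 over 119.6 Mb in spermatocytes. The wild-type lists held 55299 islands over 87.7 Mb in round spermatids and 22484 over 56.1 Mb in spermatocytes. Islands held 5375414 and 4461473 ChIP reads in BD1del round spermatids and spermatocytes, against 2873055 and 3147476 in the wild-type round spermatids and spermatocytes. Per kb of island this was 49.2 and 37.3 in BD1del and 32.8 and 56.1 in wild type, in the same order. Single islands weigh on these values. The island with most ChIP reads held 301891 in BD1del round spermatids and 456487 in BD1del spermatocytes. In wild type it held 325092 in round spermatids and 452237 in spermatocytes. The ratio of control depth to ChIP depth was 5.45 in BD1del round spermatids and 5.64 in BD1del spermatocytes, against 3.79 in wild-type round spermatids and 1.79 in wild-type spermatocytes. Control reads in islands, scaled by these ratios to the ChIP library, had medians of 7.80 and 8.87 per kb in BD1del round spermatids and spermatocytes, against 8.49 and 22.2 in wild-type round spermatids and spermatocytes. The value of wild-type round spermatids thus lay between those of the BD1del lists. These medians come from called islands only, so they do not rank the depth of the ChIP libraries. The read set also differed by genotype, since the labels name paired F3 and F5 tags for BD1del and F3 tags for wild type. Genotype, read set and control depth therefore cannot be told apart in what follows.

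The count was set beside the count that random positions give, and most of it was also found after moves. The 12284 regions made up 13.8% of the BD1del spermatocyte islands (13.6 to 14.1%, exact binomial 95% interval for counting error only). When every BD1del spermatocyte island was moved at random by 10 to 500 kb in whole windows, 10620 islands on average met the same rule, with a range of 10417 to 10891 over 100 moves. The observed number was thus 1.16 times the moved mean, an excess of 1664 islands. All islands lie on a 200-base grid. Moves to any base, which leave that grid, gave a mean of 11711 and a ratio of 1.05. The rule does not tell which regions make up the excess.

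Shifting all BD1del spermatocyte islands together by a fixed distance showed how narrow the excess was. The share of islands meeting the rule was 13.8% in place, 13.3% after a shift of 200 bases, 12.4% after 1 kb and 12.0% after 2 kb. From there to 100 kb it lay between 11.8% and 12.1%. The corresponding wild-type set, spermatocyte islands that meet a wild-type round spermatid island and no BD1del island, behaved otherwise. It held 6168 of 22484 wild-type spermatocyte islands, 27.4%, against a moved mean of 1409, a ratio of 4.38. Its share was 21.8% after a shift of 1 kb, 15.8% after 2 kb and 9.80% after 4 kb, and lay between 6.23% and 6.84% from 10 kb on. Contact between stages without the other genotype was thus 1.16 times the moved mean in BD1del and 4.38 times in wild type, a contrast that had no test and that shares the differences in list size, control depth and read set named above. The ratio depended on which islands were kept. With each list held to its 10000 islands of lowest p, it was 4.16 in BD1del, from 159 islands, and 10.3 in wild type, from 802. That limit changes list size and island strength together, so their parts cannot be told apart.

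**Figure D1:**
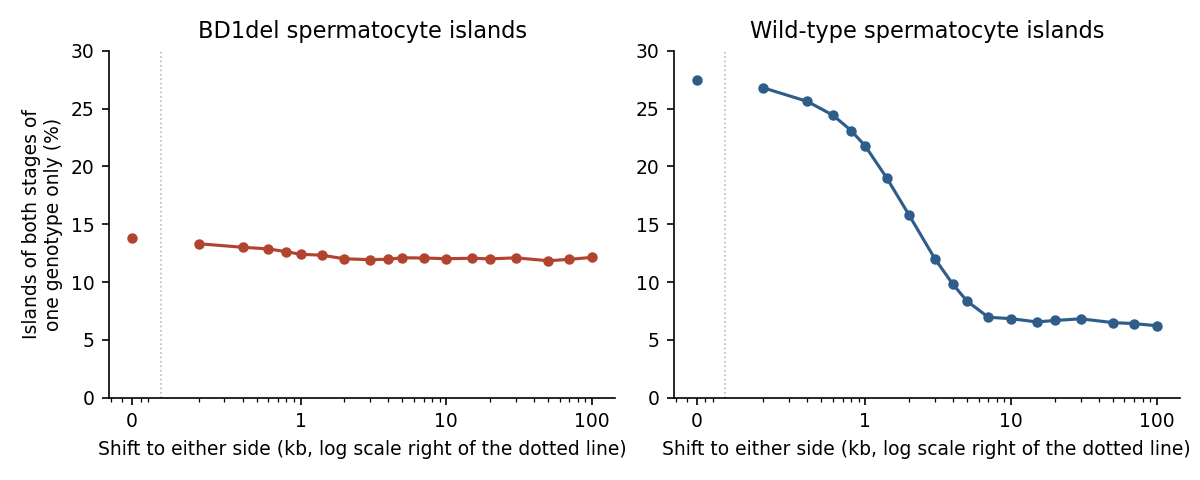
Share of BD1del spermatocyte islands (left) and wild-type spermatocyte islands (right) that met an island of the other stage of their own genotype and none of the other genotype, in percent, after all islands were shifted by the distance on the horizontal axis (kb; the point left of the dotted line is no shift, the axis is logarithmic right of it; values are means of both directions). The BD1del share starts at 13.8% and levels at about 12.0% from 2 kb, whereas the wild-type share starts at 27.4% and is 6.96% at 7 kb and lower beyond.

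Contact between the BD1del stages was more frequent where wild-type islands were also present, which is outside these regions. Of all BD1del spermatocyte islands, 19.2% met a BD1del round spermatid island and 87.0% met no wild-type island. Among the 77200 islands without wild-type contact, 15.9% met a BD1del round spermatid island (15.7 to 16.2%), against 13.2% after moves. Among the 11538 with wild-type contact the share was 41.1% (40.2 to 42.0%), against 22.0% after moves, and among the 3543 that met both wild-type lists it was 66.0%. Of the islands shared by the BD1del stages, 1632 met the wild-type round spermatid list only, 772 the wild-type spermatocyte list only and 2340 both. Islands of BD1del spermatocytes alone, with no contact to any list, were the largest class at 64916.

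Contacts between the stages were mostly short, and the ratio to moved islands was larger for contacts of 1000 bases or more than for a single window. The 2 stages shared a single 200-base window in 5347 regions, 1.11 times the moved mean of 4813. They shared 1000 to 1600 bases in 1727 regions, 1.31 times the moved mean, and 1800 to 3200 bases in 266, 2.01 times. More than 3200 bases were shared in 42 regions, against a moved mean of 6.57 with a range of 1 to 12. The 3 longest regions, on chromosome 8 and described below, were among these 42. Their folds were only 1.13 to 1.46, with 176 to 353 control reads per kb in spermatocytes. The median region was covered to 30.8% by round spermatid islands (quartiles 16.7 and 60.0%). Full cover was found in 1615 regions, 1.39 times the moved mean of 1160. Identical first and last bases in both stages were found in 271 regions, 2.40 times the moved mean of 113. Each region met 1 round spermatid island in 11980 cases, 2 in 296 and 3 in 8.

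Enrichment of these regions was moderate, and it hardly tracked between the stages. The fold, as deposited, divides ChIP reads by control reads after scaling for library size. In the round spermatid island of highest fold that each region met, the fold had a median of 5.85 (quartiles 3.78 and 10.3), and in the spermatocyte island itself it had a median of 3.34 (2.55 and 4.83). The fold was higher on the round spermatid side in 75.4% of the regions, as in the lists as a whole, whose medians were 7.39 and 3.93. In the 271 pairs with identical boundaries, which have equal lengths, the medians were alike, at 6.24 in round spermatids and 6.44 in spermatocytes. The 75.4% therefore compares islands of unlike length and does not rank the stages. The median length was 600 bases on the round spermatid side and 1400 bases on the spermatocyte side, and the spermatocyte island was the longer in 9015 regions. Round spermatid partners held a median of 29 ChIP and 30 control reads, and spermatocyte islands a median of 43 and 74. Across the 12284 pairs, Spearman's correlation of the folds was 0.11, a description in which the pairs share libraries. Pairs that shared at least 50% of the spermatocyte island numbered 4231 and had a correlation of 0.41, and the 271 with identical boundaries 0.76. Pairs of identical boundaries also share their length, and fold falls with length in these regions, with a median spermatocyte fold of 12.2 in islands of 1 window and 2.51 in those of 2200 to 4000 bases. In the wild-type set the correlation was 0.48 over 6168 pairs, and 0.60 over the 498 with identical boundaries. Its pairs were also more alike in length, with a correlation of 0.50 against -0.03 in these regions. For control reads per kb the correlations were 0.69 and 0.35. The 0.48 and 0.11 are therefore not a like comparison of the stages.

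Compared with the other BD1del spermatocyte islands, these regions were longer and of lower fold. Their median length was 1400 bases against 1200 in the other 76454, and single-window islands made up 3.92% (3.58 to 4.27%) against 10.0%. Their median fold was 3.34 against 4.05, and 3.86% of them had a fold of at least 10 with at least 10 control reads, against 6.42% of all BD1del spermatocyte islands. The share meeting the rule also rose with length after moves, so part of this difference is fixed by the rule. Control reads per kb were alike, with a median of 50.5 against 49.5. Islands shared by all 4 lists were longer again, at 1800 bases, with a similar median fold of 3.30 and 60.0 control reads per kb. The wild-type set had a median length of 2000 bases and a median fold of 1.73, and 69.6% of it lay under a fold of 2, where only 8.62% of these regions did.

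The share of islands meeting the rule was lower at higher folds, and so was the share after moves. Of the BD1del spermatocyte islands with a fold under 2, 22.1% met the rule, against 17.9% after moves. Between 3 and 4 the values were 14.6% and 13.3%, and at 20 or more they were 6.02% and 5.21%. By length, islands of 1 window met it in 5.91% of cases against 4.65% after moves, and islands of 2200 to 4000 bases in 21.4% against 19.6%. The longest class, over 4000 bases, was the exception with these moves by whole windows, with 24.1% against 27.8% after moves. With moves to any base its number was 0.85 times the moved mean, and further classes also fell under 1. The ratios were then 0.98 for islands of 1 window, 0.95 for folds of 10 to 20 and 0.91 for folds of 20 or more.

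Requiring a high fold at both stages left few regions, with a larger ratio to moved islands and a smaller difference in number. With at least 10 control reads in both islands of a pair, both folds reached 4 in 2466 regions, 1.24 times the moved mean. Both reached 8 in 216 regions, 1.83 times, and both reached 10 in 77 regions, 2.64 times the moved mean of 29.2, whose range was 15 to 41. With moves to any base these ratios were 1.08 at 4, 1.43 at 8 and 2.01 at 10. The 77 regions lay on 15 chromosomes, with a median length of 600 bases, and 36 of them spanned at most 400 bases. Of the 77, 9 lay in the stretches described below, where folds cannot be read as Brdt binding alone. Of these 77, 19 had identical boundaries at both stages. Their round spermatid islands held 20 to 931 ChIP reads with a median of 43, and their spermatocyte islands 23 to 769 with a median of 45. The nearest wild-type island lay 10.6 kb away in the median.

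**Figure D2:**
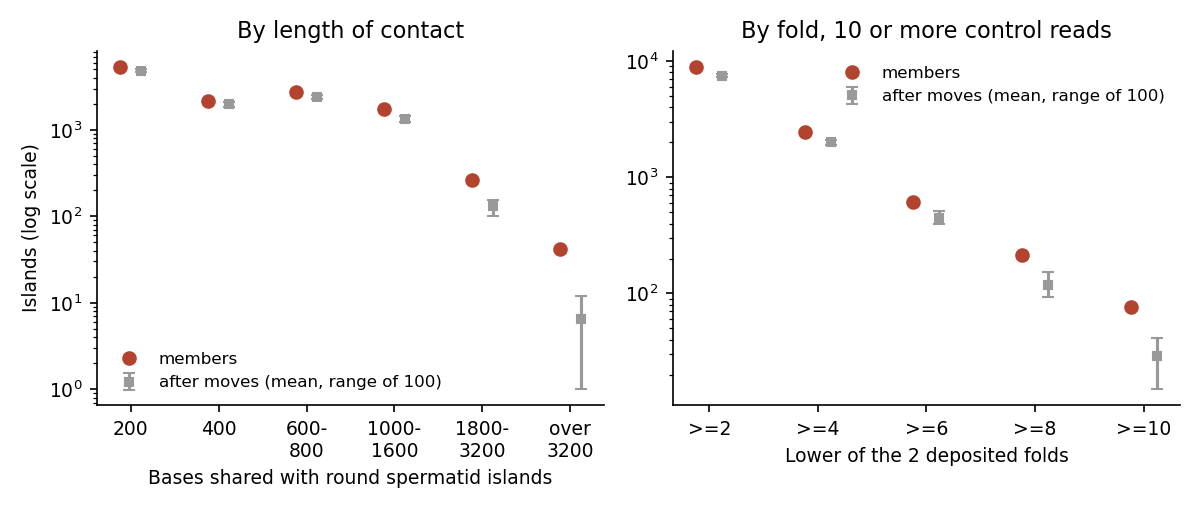
Number of regions meeting the rule (circles) and number after 100 random moves of 10 to 500 kb (squares, mean with the lowest and highest), both on logarithmic axes, by the number of bases shared with round spermatid islands (left) and by the lower of the pair's 2 deposited folds among pairs with at least 10 control reads in each list (right). At a single shared window the numbers are 5347 and 4813, and at a lower fold of at least 10 they are 77 and 29.2.

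The 8 regions with the highest lower-of-pair fold were at most 1000 bases long, and 6 of them had the same 400 bases at both stages. The leading one, chromosome 6, 10136201 to 10136600, held 186 ChIP and 44 control reads in BD1del round spermatids, a fold of 23.0. In BD1del spermatocytes it held 137 ChIP and 19 control reads, a fold of 40.7. The nearest wild-type island was 1 kb away. Chromosome 3, 152786601 to 152787000, held 224 and 178 ChIP reads in round spermatids and spermatocytes, with folds of 22.6 and 38.6. Chromosome 8, 92969601 to 92970000, held 196 and 184 ChIP reads, with folds of 22.2 and 33.5 in the same order. At chromosome 9, 19379801 to 19380200, the reads were 186 and 194 and the folds 22.0 and 49.7. In these 4 islands the fold was higher in spermatocytes, where the ChIP count was the lower in 3 of them. Control counts were 44 to 54 in round spermatids and 19 to 31 in spermatocytes. The last 3 lay 9.6 to 14.4 kb from the nearest wild-type island. Chromosome 10, 36983401 to 36983800, was of the same form, with 176 and 154 reads and folds of 17.1 and 22.3. Chromosome 7, 105208401 to 105209200, was an 800-base spermatocyte island of 140 reads at a fold of 17.2, of which round spermatids covered 400 bases with 127 reads at a fold of 25.6. It lay 54.8 kb from the nearest wild-type island.

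Such counts were rare for islands of this size. Islands of 400 bases held a median of 27 ChIP reads in BD1del round spermatids and 29 in BD1del spermatocytes, and the 99th percentiles were 55 and 57. At least 100 ChIP reads were held by 43 of 19614 such islands in round spermatids and by 29 of 7035 in spermatocytes. Of the regions described here, 11 islands of 400 bases held at least 100 ChIP reads with a partner that did too, and 8 of these had the same boundaries. Control reads moved with these counts in round spermatids: the first 4 islands had 110 to 135 control reads per kb there, against a median of 45.0 over all partners. In spermatocytes they had 47.5 to 77.5, against a median of 50.5. The part of the control in these folds was not tested, nor was that of duplicate reads or of DNA other than chromatin. These folds, too, cannot be read as Brdt binding alone.

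The remaining 2 of the 8 leading regions, on chromosomes 15 and 5, belonged to stretches in which several islands of high fold stood close together. To find all such stretches, islands with a fold of at least 10 and at least 10 control reads were joined where gaps were at most 20 kb, a description chosen after the values were seen. Groups of at least 3 numbered 324 in BD1del round spermatids and 11 in BD1del spermatocytes, against 0 in either wild-type list. The wild-type lists had only 392 and 95 such islands in round spermatids and spermatocytes in all, against 16351 and 5696 in BD1del. Groups whose islands held at least 500 ChIP reads were found in 3 places, on chromosomes 5, 15 and 7. The next group held 243 reads in round spermatids and 157 in spermatocytes. The genes at these 3 stretches were not looked up, since no mm9 annotation was used. Whether their short, separated islands coincide with exons, whether one of them lies at the Brdt gene that was altered in these mice, and whether DNA other than chromatin, such as cDNA or plasmid, added to the ChIP reads was not tested. The folds and reads below therefore cannot be read as Brdt binding alone. Control reads were 38.3 to 58.0 per kb in the round spermatid islands and 43.7 to 62.9 per kb in the spermatocyte islands of the stretches, against list medians of 42.5 and 50 per kb.

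The stretch on chromosome 5, 107769801 to 107816200, spanned 46.4 kb and held 5 of the regions. BD1del round spermatids had 9 islands in it with 847 ChIP and 484 control reads, and BD1del spermatocytes had 8 with 2752 ChIP and 935 control reads. The strongest region there was 107778601 to 107779600, with a fold of 17.1 in round spermatids, from 170 ChIP reads, and 35.8 in spermatocytes, from 444. The neighbouring region from 107785601 to 107789400 held 769 ChIP reads in spermatocytes at a fold of 24.5 and met a round spermatid island of 204 reads at a fold of 12.1. At 107805201 to 107807200 both stages had the same boundaries, with folds of 3.42 in round spermatids and 21.8 in spermatocytes. Spermatocytes held more ChIP reads than round spermatids in this stretch. Wild type had 1 island in the stretch at each stage, of fold 2.39 in round spermatids and 2.36 in spermatocytes. The wild-type round spermatid island covered part of the BD1del spermatocyte island 107769801 to 107775000, fold 17.8, which is for that reason not among the regions.

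The stretch on chromosome 15, 57915001 to 57957800, spanned 42.8 kb and held 9 of the regions. BD1del round spermatids had 13 islands with 3489 ChIP and 998 control reads, and BD1del spermatocytes had 10 with 2046 ChIP and 1145 control reads. The region at 57931401 to 57931800 had the same boundaries at both stages, with 249 reads and a fold of 28.9 in round spermatids and 147 reads and a fold of 17.3 in spermatocytes. The spermatocyte island 57933001 to 57935200 held 591 reads at a fold of 13.9, and the round spermatid island it met, 57933801 to 57936200, held 931 at a fold of 21.6. A longer spermatocyte island, 57937001 to 57941800, at a fold of 10.2, was met by 3 separate round spermatid islands, with folds of 37.4, 50.9 and 2.67 along its length. Here the round spermatid side was the stronger. Wild-type round spermatids had 1 island in the stretch, of 41 reads and a fold of 2.82, which met the 1 spermatocyte island there that is not among the regions, 57952401 to 57952800 at a fold of 17.5. Wild-type spermatocytes had none.

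The stretch on chromosome 7, 150710001 to 150737800, was weaker in spermatocytes. It held 5 of the regions within 27.8 kb. BD1del round spermatids had 10 islands with 778 ChIP and 222 control reads, 8 of them at a fold of at least 10, and BD1del spermatocytes had 5 with 251 ChIP and 181 control reads, of which 1 reached 10. The region at 150720001 to 150720400 had a fold of 56.9 in round spermatids, from 115 ChIP and 11 control reads, and 15.9 in spermatocytes, from 45 and 16. Another, 150721401 to 150723000, held 88 reads in spermatocytes at a fold of 6.20 and met a round spermatid island of 189 reads at a fold of 34.3. The 1 wild-type island in the stretch was found in spermatocytes, at a fold of 4.40 from 59 ChIP and 24 control reads, and touched none of the regions. Without the stretches the count was 12265 and the ratio to moved islands 1.15, close to the values with them.

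**Figure D3:**
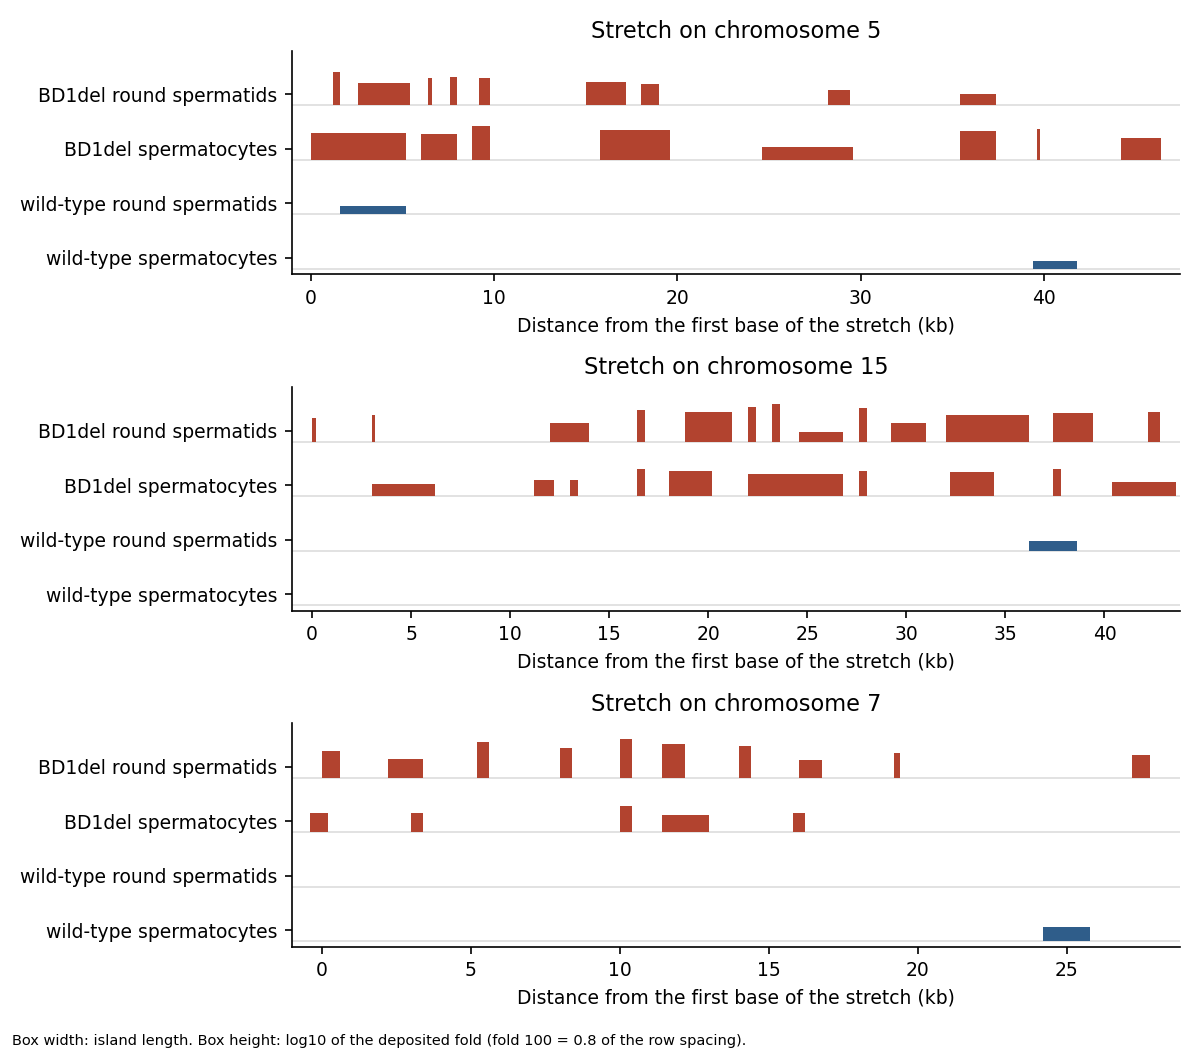
Islands of the 4 lists in the stretches on chromosomes 5, 15 and 7, by distance from the first base of the stretch (kb); box width is island length and box height the log10 of the deposited fold, with BD1del in red and wild type in blue. Both BD1del stages have 5 to 13 islands in each stretch, and each wild-type list has at most 1, with a fold of 2.36 to 4.40.

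**Figure D4:**
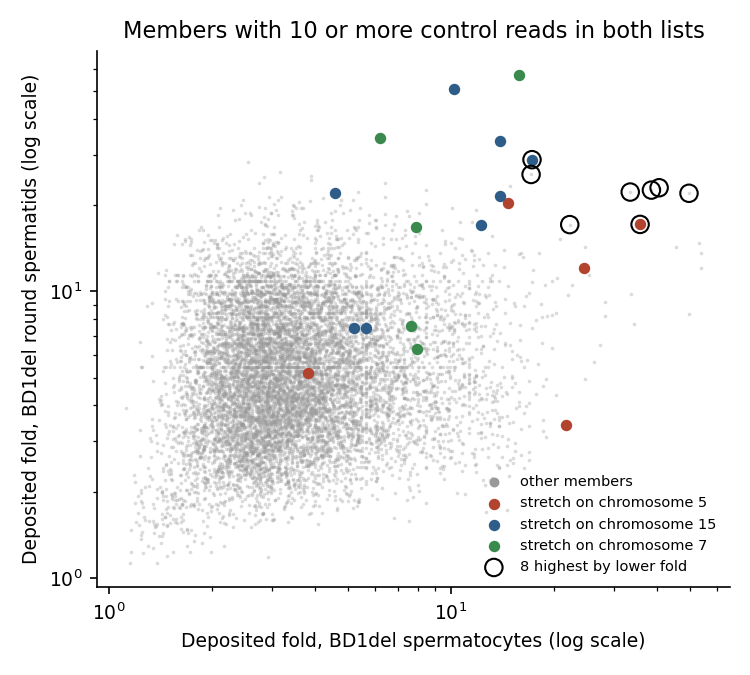
Deposited fold in BD1del spermatocytes (horizontal) and in the BD1del round spermatid island met (vertical), both on logarithmic axes, for the 10004 regions with at least 10 control reads in both lists; colours mark regions in the 3 stretches and circles the 8 with the highest lower fold. Most points form a cloud without a clear slope, and the circled points lie at its upper right.

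At the other end, the longest regions were weakly enriched and rich in control reads. The 3 longest were also the 3 with most spermatocyte ChIP reads, and all lay on chromosome 8. The longest, 19917201 to 20006200, spanned 89000 bases and held 6448 ChIP and 31455 control reads in spermatocytes, a fold of 1.16. Round spermatid islands covered 56.4% of it, and the one of highest fold among them reached 1.46. The next, 19744001 to 19772800, met a round spermatid island of 56600 bases with 3497 ChIP and 15475 control reads, a fold of 1.23, and had a fold of 1.15 itself. The third, 19860401 to 19886400, had folds of 1.13 in round spermatids and 1.15 in spermatocytes. Control reads reached 353, 328 and 176 per kb in the spermatocyte islands, against a median of 50.5 over all regions. The part of these control levels in the calls was not tested.

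The share of islands that met the rule was similar on all 17 autosomes. Per chromosome, 12.9 to 15.5% of the BD1del spermatocyte islands met the rule, with a median of 13.8%, and the density was 4.78 to 6.98 regions per Mb. Ratios to moved islands ranged from 1.06 on chromosome 17 to 1.25 on chromosome 13. When each chromosome was cut into 10 equal parts, the share per part lay between 13.5 and 14.2%. Bins of 1 Mb held a median of 6 regions, and 23 of 2102 bins held none.

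The densest bins were on chromosome 12, next to each other. The 3 bins given here were picked out of 2102 for their high counts. That choice alone raises them over the moved values, which had no such choice. From 23 to 24 Mb, 21 of 50 BD1del spermatocyte islands met the rule, against a moved mean of 8.58 with a range of 1 to 15. From 24 to 25 Mb it was 18 of 42, against 8.27. On chromosome 8 from 19 to 20 Mb, the bin that holds the long islands, it was 17 of 41, against 8.82. In all 3 bins the enrichment was low. The median fold in the chromosome 12 bins was 2.32 and 1.98 in round spermatids and 1.85 and 1.83 in spermatocytes, and in the chromosome 8 bin 1.54 and 1.53. Control reads per kb were high there too, with medians of 71.1, 70.6 and 92.2 in the spermatocyte islands of these bins. Wild-type lists were not empty in these bins: round spermatids had 36, 42 and 23 islands and spermatocytes 17, 21 and 6, against 26.3 and 10.7 in the mean bin.

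Distances to wild type were close to those of islands without contact. The nearest wild-type island lay 10.6 kb away in the median (quartiles 4.4 and 22.0 kb), against 11.2 kb for BD1del spermatocyte islands without any contact. A wild-type island lay within 1 kb of 7.27% of the regions, against 6.71% of the islands without contact. Of the 12284 regions, 32 were over 100 kb from any wild-type island, against 237 of 64916 islands without contact. At the limits of the rule, the 5347 regions that shared 1 window with round spermatids had a median fold of 3.61, and the 4013 contact-free islands that missed a round spermatid island by at most 200 bases had 4.33. The 304 regions at most 200 bases from a wild-type island had a median fold of 3.38, and the 404 islands lost from the rule by a single shared window of wild type had 3.67.

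Folds of this size were within what the wild-type lists called. Among islands of 1200 to 2000 bases, the 5093 regions had a median fold of 3.18, whereas wild-type islands of these lengths had medians of 2.75 in round spermatids and 1.90 in spermatocytes. Of these regions, 98.8% exceeded the lowest 5% of folds in the wild-type round spermatid islands and 99.96% that in the spermatocyte islands. These shares compare folds only and do not tell whether a region would have been called in wild type. For single windows the median was 12.2 in the regions, against 11.4 and 2.79 in the wild-type lists. Control reads per kb were 50.5 in the regions of 1200 to 2000 bases and 30.8 and 39.0 in the wild-type islands, and the wild-type reads at the regions themselves are not in island lists. How many of the regions would have been called in wild type with a control as deep as that of BD1del was not tested.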

How the data were processed

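Anti-Brdt ChIP-seq of the 4 groups was used as 4 island lists, 1 per ChIP library. Per the submitters' processing notes the authors called islands with SICER on mm9; windows of 200 bases, gaps of 600 bases and an FDR of 0.01 come from the labels of the lists. Version, aligner, duplicate handling and the input used as control are not given in the sources used here. The authors deposited, per island, whole-read counts of ChIP and control without normalization, a p-value and FDR against scaled control, and the fold, which is the ratio of ChIP reads to control reads scaled by library size. These p-values and folds are the authors' and only describe, rank or filter islands.

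Islands were compared by shared bases (1 or more), with 1-based coordinates. Where a region met several round spermatid islands, the one of highest fold stands for them. Moves (100, seeded, 10 to 500 kb to either side, to the opposite side where an island would leave its chromosome's span) are the background named by the rule and keep the 200-base grid; mappability was not considered. Exact (Clopper-Pearson) 95% intervals cover counting error only. Overlap functions were checked on simulated data against base-by-base counting. Regions, comparisons and alternatives were chosen with earlier results of these data known; shifts, stretches, moves to any base, 10000 islands in the BD1del lists only and 10000 islands for the wild-type ratio were added after the values were seen. Named regions are the 8 of highest lower-of-pair fold with at least 10 control reads in both lists, the 3 longest, the 3 with most spermatocyte ChIP reads and the 3 densest 1-Mb bins. Python 3.11.15, pandas 2.3.3 and scipy 1.17.1 were used.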

Additional observations from a re-analysis of the deposited data

How the results depend on the processing

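The count of 12284 stayed within 1.5 times (10171 to 14666) under 9 of 14 alternatives. It was 6858 with an FDR of at most 1e-10 in all lists, 5569 with that FDR in the BD1del lists only, 4231 with at least 50% of the island covered, 159 with each list held to its 10000 lowest p-values, and 115 with that limit in the BD1del lists only. In the same order the ratio to moved islands was 1.27, 1.13, 1.33, 4.16 and 3.41, against 1.16 as reported. It was 1.23 with a fold of at least 2, 1.20 with at least 10 control reads, and 1.05 with moves to any base. No alternative brought the ratio under 1. The other 10 alternatives gave ratios of 1.14 to 1.17. The wild-type ratio of 4.38 was 10.3 with each list held to its 10000 lowest p-values. No paired analysis was possible because each group had 1 library, and for the same reason no replicate could be left out. Sequence and gene features were not analysed here. What an island list does not call is not shown to be unbound, and the wild-type controls were the shallower ones relative to ChIP.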

Other observations

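The chromosomes left out by the rule gave similar shares. On chromosome 1, 1692 of 11813 BD1del spermatocyte islands met it (14.3%), on chromosome 14, 690 of 4829 (14.3%), and on chromosome X, 847 of 6977 (12.1%). Contact with wild-type islands was more frequent on chromosomes X and 1, at 60.9% and 37.8% of the islands, than on chromosome 14, at 13.8%. Contact with BD1del round spermatid islands was too, at 60.9%, 40.9% and 19.4% on chromosomes X, 1 and 14. On the chromosomes used it was 19.2%. The similar shares thus stand on unlike rates of contact.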
